A study of Mus musculus with 2 samples.

Results

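The cells described here are GABAergic cells of the mouse forebrain that carried transcripts of Isl1 or Ebf1, the transcription factors that mark direct-pathway neurons of the embryonic striatum. They were chosen on raw transcript counts, each a unique molecular identifier (UMI): at least 4 of Isl1 and Ebf1 together, at least 2 of Dlx6os1 and Gad2, 0 of Lhx6, and at most 1 each of Nkx2-1 with Lhx8 and of Top2a, Mki67 and Cdk1 together. Of 21941 called cells 1133 met this rule, 753 in the library labelled Cyfip2 knockout and 380 in the library labelled wild type. The rule rests on measured values, so the levels of its genes describe how the cells were picked and are no finding.

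Striatal projection neurons arise in the lateral ganglionic eminence and split into a direct pathway, which projects to the substantia nigra and the inner globus pallidus, and an indirect pathway, which projects to the outer globus pallidus. In the mouse, Isl1, a LIM-homeodomain factor, and Ebf1, a helix-loop-helix factor, act in the young direct-pathway neurons, which later express the dopamine D1 receptor (Drd1) and the substance P precursor (Tac1). Indirect-pathway neurons instead express the D2 receptor (Drd2), the enkephalin precursor (Penk) and the adenosine receptor gene Adora2a. Isl1 also acts in cholinergic neurons of the forebrain, which the rule limits through Lhx6, Nkx2-1 and Lhx8.

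Forebrains of embryonic day 18.5 were dissociated with papain and profiled by droplet single-cell RNA sequencing, in 1 library labelled Cyfip2 knockout and 1 labelled WT, each a pool of 2 forebrains. No further allele, strain or treatment is named in the labels. Cyfip2 encodes a subunit of the WAVE complex, which couples Rac signalling to actin assembly, and the comparison asks what its loss changes. The libraries held 150828048 and 123978461 UMIs over all barcodes, in the order knockout-labelled and wild type, and their called cells had medians of 8273 and 9998 UMIs. The selected cells had medians of 8568 and 10018 UMIs and summed to 7633792 and 4090120 UMIs. Across the libraries 32 barcodes of called cells were shared, none of them between selected cells. With 1 library a group there is no replicate check and no test between the libraries: intervals are exact 95% intervals for counts or shares, and cover counting error only. A gene is said to pass the size rule, which is no test, when its level in CPM, its UMIs per 1000000 summed UMIs, differed at least 1.5-fold, a log2 ratio of 0.58 in size, with an interval that left out equality.

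Cyfip2 transcripts differed by less than counting error between the libraries, so the genotype rests on the label. The gene (ENSMUSG00000020340, chromosome 11, 46193850 to 46312859, minus strand, mm10) was at 74.7 CPM (68.7 to 81.1; 570 UMIs) in the knockout-labelled cells and 72.9 CPM (64.8 to 81.6; 298 UMIs) in wild type, a log2 ratio of 0.04 (-0.17 to 0.24). With no allele named, these counts do not show whether the gene was disrupted, and the reason for the similar levels was not tested. Its paralogue Cyfip1 was at 36.7 and 34.0 CPM, the Cyfip-binding subunit Nckap1 at 88.9 and 91.9 CPM and the neuronal WAVE protein Wasf1 at 87.6 and 89.5 CPM. None of 9 measured genes of the WAVE complex passed the size rule, which 1.21% of all measured genes passed upward and 0.472% downward, so that the count says nothing particular to the complex. They had a median log2 ratio of -0.03, against -0.01 over all 6779 measured genes.

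The selected cells were rich in striatal factors that the rule did not use, and a minority already carried transcripts of the mature direct-pathway genes. Isl1 (ENSMUSG00000042258, chromosome 13, 116298281 to 116309689, minus strand, mm10) was at 649 CPM in the knockout-labelled cells and 720 CPM in wild type, and Ebf1 (ENSMUSG00000057098, chromosome 11, 44617317 to 45008091, plus strand, mm10) at 2354 and 3184 CPM. These levels follow from the rule. The pan-striatal factors Foxp1 (1203 and 1619 CPM), Bcl11b (1615 and 1893 CPM) and Meis2 (2372 and 2536 CPM), which the rule did not use, were abundant. With every cell thinned to 1000 UMIs, Bcl11b had a UMI in 76.6% and 82.1% of the selected cells, against 46.6% and 43.7% of Lhx6 cells. Indirect-pathway-type cells, defined below, had it in 86.6% and 88.2%. Foxp1 was in 53.4% and 58.7% of the selected cells and in 78.5% and 76.5% of the indirect-type cells. For Meis2 these shares were 77.4% and 85.5%, and 99.3% and 92.4%. These factors are thus not particular to the selected cells. Tac1 (ENSMUSG00000061762, chromosome 6, 7554879 to 7565834, plus strand, mm10) was at 58.3 CPM (445 UMIs) in the knockout-labelled cells and 46.2 CPM (189 UMIs) in wild type. It was carried by 53 cells (7.04%; 5.32 to 9.11) and 27 cells (7.11%; 4.73 to 10.2). Drd1 was at 15.6 and 16.1 CPM and in 10.1% and 11.6% of cells.

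Those shares lie above the ones in Lhx6 cells and in excitatory-type cells, neither of which was shown to lack the genes. In Lhx6 cells, taken with at least 2 Lhx6 UMIs, a marker of interneurons of the medial ganglionic eminence, Tac1 was in 1.93% and 2.26% and Drd1 in 0.826% and 0.348% of cells, at median depths of 8491.5 and 8765 UMIs. Excitatory-type cells had at least 4 UMIs of Neurod2 and Neurod6 together and none of Dlx6os1 and Gad2. In them Tac1 was in 0.308% and 0.105% and Drd1 in 2.12% and 1.92% of cells, at median depths of 9377 and 11238 UMIs. After the same thinning Tac1 was seen in 2.92% and 2.37% of the selected cells and in 0.413% and 0% of the Lhx6 cells, where 0 of 575 allows up to 0.522%. The peptide precursor Pdyn stood at 2.23 and 4.40 CPM, and the D1-neuron receptor gene Chrm4 at 1 UMI and none. Of 12 direct-pathway markers 7 reached the level needed to be measured, at least 20 CPM in either library and 100 UMIs over both libraries together. Tac1, Drd1 or Pdyn was detected in 126 cells (16.7%) and 71 cells (18.7%). Striatal factors outside the rule were thus abundant over the cells as a whole, while later direct-pathway genes were detected in a minority, and Isl1 and Ebf1 themselves say nothing about the label.

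Other cell types left small but measurable traces. The 8 cholinergic markers summed to 45.3 CPM in the knockout-labelled cells and 21.5 CPM in wild type, nearly all of it Zic4 (43.9 and 20.0 CPM), a gene that the septal list of markers also holds. Chat and Gbx2 were at 0 in both libraries, and Lhx6 and Lhx8 are held down by the rule. Hypothalamic and diencephalic markers summed to 15.9 CPM in the knockout-labelled cells and 9.78 CPM in wild type, with 5 and 9 of 15 genes at 0. Excitatory-neuron markers summed to 580 and 449 CPM, and 2 or more UMIs of Neurod2 and Neurod6 together were in 155 cells (20.6%; 17.7 to 23.7) and 56 cells (14.7%; 11.3 to 18.7). A high doublet score was given to 104 cells (13.8%; 11.4 to 16.5) and 34 cells (8.95%; 6.28 to 12.3), in which the median was 16574 and 17768.5 UMIs. At the edge of the rule, 57 and 19 cells had exactly 4 UMIs of Isl1 and Ebf1 together, and 61 and 28 cells missed it with 3. Those just inside had 487 and 462 CPM of Foxp1 and those just outside 519 and 413 CPM.

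Isl1/Ebf1 cells made up 5.86% (5.46 to 6.28) of called cells in the knockout-labelled library and 4.18% (3.78 to 4.61) in wild type, a ratio of 1.40 (1.24 to 1.59). The cells were also split by the counts that had chosen them, which is a description. Those with Isl1 and no Ebf1 were 246 cells, 1.91% (1.68 to 2.17) of called cells, and 68 cells, 0.748% (0.582 to 0.948), a ratio of 2.56 (1.95 to 3.40). Cells with Ebf1 were 507, 3.94% (3.61 to 4.29), and 312, 3.43% (3.07 to 3.83), a ratio of 1.15 whose interval of 0.996 to 1.33 reached equality. Both factors were detected together in 464 (61.6%) and 289 (76.1%) of the selected cells, and Ebf1 without Isl1 in 43 and 23.

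**Figure D1:**
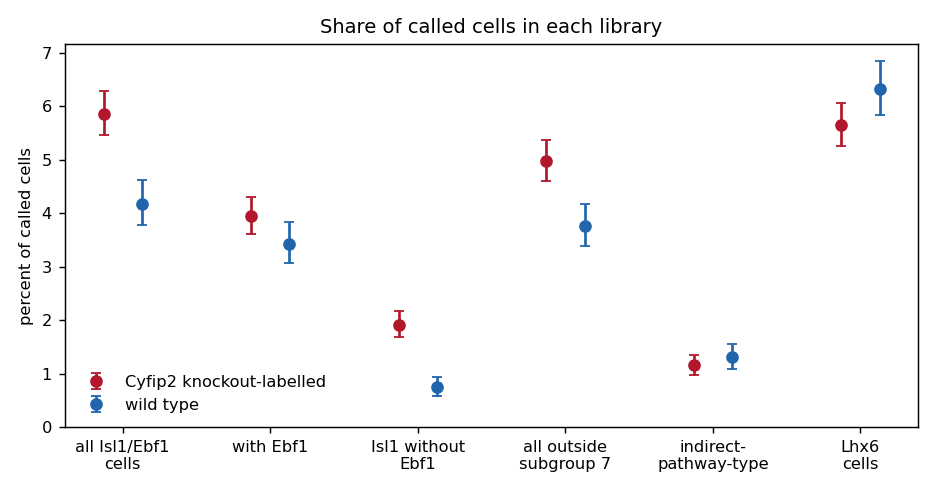
Percent of called cells in each library that fell in the named sets, with exact 95% binomial intervals (knockout-labelled left, wild type right, 1 library each). The intervals are apart for all Isl1/Ebf1 cells (5.86% and 4.18%) and for Isl1 cells without Ebf1 (1.91% and 0.748%), and overlap for cells with Ebf1 (3.94% and 3.43%).

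Depth differed between the libraries, and the cells had been chosen at the full depth of each. After they were thinned to 4000 UMIs, with 83 and 30 shallower cells left out, Isl1 cells without Ebf1 were 29.4% (25.8 to 33.2) of the knockout-labelled and 16.8% (12.99 to 21.2) of the wild-type cells that kept 2 or more of these UMIs, a ratio of 1.75 (1.29 to 2.40). Without thinning, the shares were 32.7% and 17.9%. As a background for Ebf1 detection, 3.44% and 1.74% of Lhx6 cells had an Ebf1 UMI, in a set that was allowed at most 1 UMI of Isl1 and Ebf1. GABAergic non-dividing cells as a whole were 26.6% and 21.5% of called cells, and the Isl1/Ebf1 cells were 22.0% and 19.5% of them, a ratio of 1.13 (0.996 to 1.28). In the same libraries indirect-pathway-type cells were 1.16% (0.981 to 1.36) and 1.31% (1.09 to 1.57), a ratio of 0.885 (0.691 to 1.14), and Lhx6 cells 5.65% and 6.33%. Dissection and dissociation of 1 pool per label cannot be told apart from the genotype in any of these shares.

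**Figure D2:**
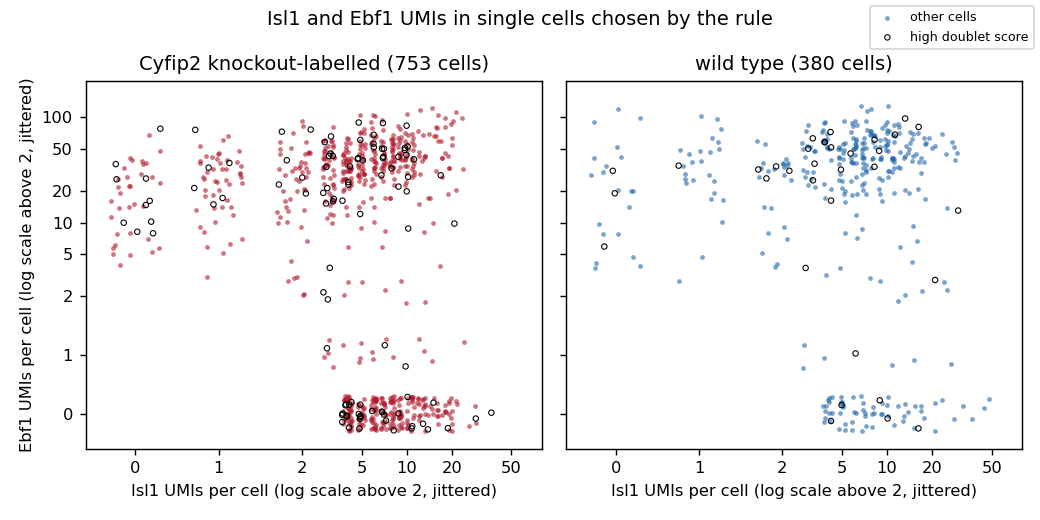
Isl1 UMIs (horizontal) and Ebf1 UMIs (vertical) in every selected cell, knockout-labelled library at left and wild type at right, on scales that are logarithmic above 2 and with a small random shift of each point. Most cells lie in an upper cloud with both transcripts, and a lower band of cells without Ebf1 holds 246 knockout-labelled and 68 wild-type cells; open circles are cells with a high doublet score.

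The closest other cells were indirect-pathway-type neurons, taken as cells with at least 3 UMIs of Penk, Drd2, Gpr6 and Adora2a together and at most 1 of Isl1 and Ebf1, 149 in the knockout-labelled library and 119 in wild type. The genes that defined either set differ by construction. Of 6463 measured genes 196 were higher in the Isl1/Ebf1 cells in both libraries (3.03%) and 112 lower (1.73%) by the size rule. Among direct-pathway markers outside the rule, Sox8, a SoxE transcription factor, was at 70.1 CPM in Isl1/Ebf1 cells and 9.63 CPM in indirect-type cells of the knockout-labelled library, and at 103 and 14.01 CPM in wild type. Zfp521, a zinc finger partner of EBF factors, was at 55.7 and 4.13 CPM in the knockout-labelled library and 66.7 and 8.76 CPM in wild type. Tac1 had no UMI in the indirect-type cells of either library. All 3 genes were under 20 CPM in the indirect-type cells and were measured through their level in the Isl1/Ebf1 cells, so that they could only come out higher. The same holds for any other gene under that level in the indirect-type cells. Rxrg, a retinoid receptor often named for direct-pathway cells, did not separate the sets: it was at 151 CPM in both sets of the knockout-labelled library, and at 220 and 178 CPM in wild type.

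Several neuronal genes were among those with the largest ratios of Isl1/Ebf1 over indirect-type cells. The neurofilament gene Nefl had log2 ratios of 3.61 in the knockout-labelled library and 5.59 in wild type, the synaptic vesicle protein gene Rph3a 3.17 and 4.18, the neurotrophin-3 receptor Ntrk3 3.24 and 2.80, and the contactin Cntn5 2.80 and 3.94. Zcchc12, a coactivator of BMP-responsive transcription, was at 169 CPM in Isl1/Ebf1 cells and 17.2 CPM in indirect-type cells of the knockout-labelled library, and at 225 and 29.8 CPM in wild type. Lingo2, Arid5b, Zic1 and Klhl13 were also among the 12 with the highest ratios.

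In the other direction stood, besides the genes that chose the indirect-type cells, their known regulators. Sp9, a zinc finger factor that indirect-pathway neurons need in the mouse, was at 55.4 CPM in Isl1/Ebf1 cells and 543 CPM in indirect-type cells of the knockout-labelled library (log2 ratio -3.29), and at 37.9 and 668 CPM in wild type (-4.14). Six3, a homeobox factor of the same lineage, had log2 ratios of -2.83 and -3.11. The receptor phosphatase Ptprm (-5.15 and -4.78), the adaptor Skap2 (-4.71 and -4.43), the secreted protein gene Scube1 (-3.43 and -3.46), the zinc finger factor Ikzf2 (-3.05 and -3.49) and the kainate receptor subunit Grik3 (-2.86 and -3.37) were lower as well. Genes such as Ptprm were measured here through their level in the indirect-type cells, so that they could only come out lower. Six3os1, Ndst3 and the calcium sensor Hpca complete that list.

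**Figure D3:**
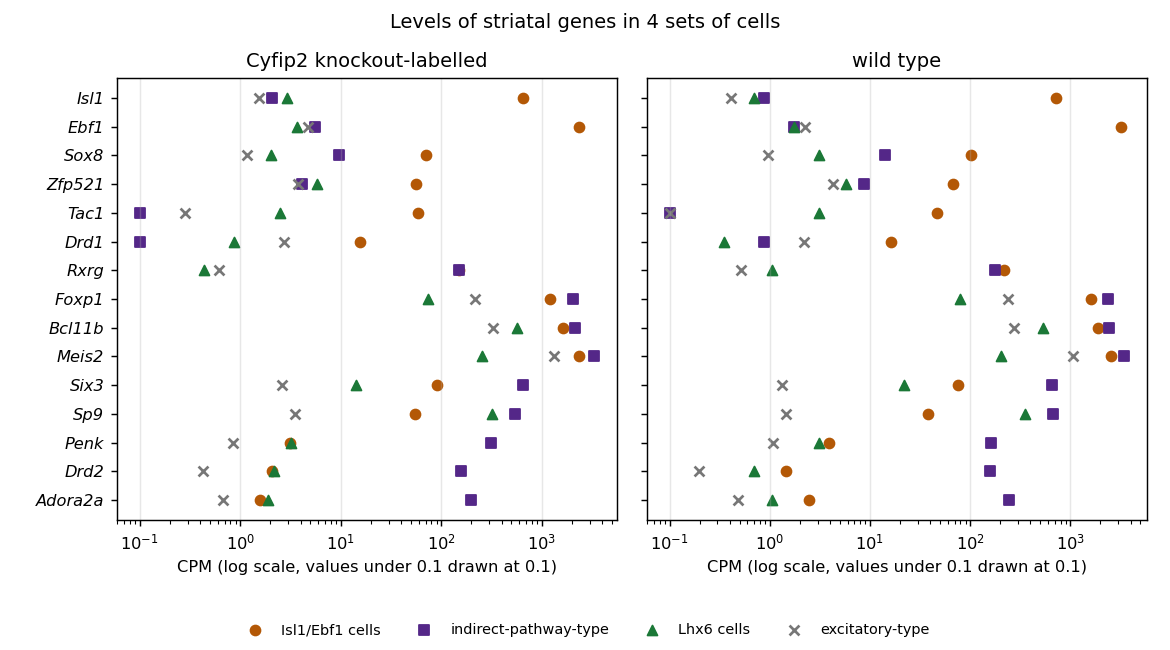
Levels in CPM of the summed UMIs (logarithmic axis, values under 0.1 drawn at 0.1) of 15 striatal genes in 4 sets of cells, knockout-labelled library at left and wild type at right. Isl1, Ebf1, Sox8, Zfp521, Tac1 and Drd1 are highest in Isl1/Ebf1 cells, Six3, Sp9, Penk, Drd2 and Adora2a in indirect-pathway-type cells, and Rxrg is shared by both, at 151 CPM in each set of the knockout-labelled library.

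Receptors and ligands of axon guidance, which steer growing axons to their targets, differed in part between these sets. Of 44 measured members 10 were higher in Isl1/Ebf1 cells in both libraries and 2 lower, beside 3.03% of all 6463 measured genes higher and 1.73% lower, with median log2 ratios of 0.24 and 0.15 against 0.01 and -0.004 over all of these. The netrin receptor Dcc was at 143 and 55.7 CPM in the knockout-labelled library and 114 and 50.8 CPM in wild type. The semaphorin receptors Plxnc1 (1.14 and 1.00) and Nrp1 (1.45 and 0.65), the ligands Sema3c, Sema6a and Sema6d, the ephrin receptor Ephb1 (0.67 and 0.91), Tenm4, Chl1 and Dscam were higher. The Robo ligand Slit3 (-3.52 and -4.94) and the ephrin receptor Epha7 (-1.26 and -1.10) were lower. Of 37 striatal transcription factors 9 were higher, 2 of them Isl1 and Ebf1, and 7 lower, beside the same 3.03% and 1.73%. Foxp2 was at 373 and 93.6 CPM in the knockout-labelled library and 392 and 111 CPM in wild type, while Id4, which binds and blocks bHLH proteins, had 230 CPM in Isl1/Ebf1 cells and 480 CPM in indirect-type cells of the knockout-labelled library, and 253 and 595 CPM in wild type. In dopamine and cAMP signalling 1 of 22 members was higher, the G-protein regulator Rgs2, which is near the 3.03% of all genes, and 5 were lower, beside 1.73%, among them the olfactory-type G protein Gnal (-1.44 and -0.99) and the G-protein subunit Gng7 (-2.81 and -2.41).

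The promoters of these genes were searched for CCCNNGGG, the core to which EBF factors bind, which reads the same on both strands. RefSeq windows (GRCm38.p6, from 250 bases before to 50 after a start) were listed for 144 of the 196 higher genes, and 24 of these (16.7%) held the core in any of their windows. It stood in 25 of 71 lower genes (35.2%), in 1086 of 5152 measured genes (21.1%) and in 13.7% of all 32851 windows. The share among the higher genes was thus below that among measured genes, and a match is letters only. The window of Zcchc12, the only one of 8 named higher genes with an entry that held the core, is shown beside that of Tac1, the marker gene, which did not. Capitals mark the core; the windows are chrX:36195654-36195953 and chr6:7554811-7555110, both on the plus strand, written 5′ to 3′.
Zcchc12: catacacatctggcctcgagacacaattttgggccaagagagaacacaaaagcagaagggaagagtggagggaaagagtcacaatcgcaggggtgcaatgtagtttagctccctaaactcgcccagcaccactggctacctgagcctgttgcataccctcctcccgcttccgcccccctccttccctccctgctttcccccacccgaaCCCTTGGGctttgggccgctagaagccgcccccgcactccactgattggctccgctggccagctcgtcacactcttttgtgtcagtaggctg
Tac1: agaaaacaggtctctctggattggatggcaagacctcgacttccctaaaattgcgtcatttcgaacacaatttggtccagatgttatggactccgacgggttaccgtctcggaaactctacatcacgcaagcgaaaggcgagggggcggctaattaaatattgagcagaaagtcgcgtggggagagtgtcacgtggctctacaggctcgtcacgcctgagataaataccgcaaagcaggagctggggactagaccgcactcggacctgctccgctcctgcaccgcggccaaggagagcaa

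Within the Isl1/Ebf1 cells, transcripts other than the genes of the rule separated 7 subgroups. They are called by their leading genes, which were found on the same cells and are a description, and no subgroup is given a cell type name. Subgroup 1 (230 cells) led with Crabp1, Cntn5 and Sox8, among others. Subgroup 2 (209 cells) had the highest Ebf1 level, 5908 CPM in the knockout-labelled library and 6703 CPM in wild type, with Sorcs3, Myo16 and Zfhx3. Subgroup 3 (199 cells) led with Tac1, at 228 and 114 CPM, and with Pcdh17, Rxrg (418 and 552 CPM) and the glutamate receptor Grm5. Drd1 was also highest there, at 48.2 and 42.1 CPM. The 3 subgroups had Foxp1 between 1039 and 2662 CPM and Ebf1 in nearly every cell: in subgroup 2 it was missing from 12 knockout-labelled and 7 wild-type cells, and in subgroup 1 from 2 and 0.

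The remaining subgroups were poorer in these genes. Subgroup 4 (177 cells) led with the neuropeptide Y receptor Npy1r, Prok2, the semaphorin receptor Nrp2 and the protocadherin Pcdh11x, and 125 of its 143 knockout-labelled and 24 of its 34 wild-type cells lacked Ebf1. It kept Bcl11b at 2194 and 2802 CPM and Isl1 at 1233 and 1301 CPM, while Sox8 was at 3.00 and 0 CPM. Subgroup 5 (116 cells) led with the retinaldehyde dehydrogenase Aldh1a3, the cyclin Ccnd2, Sp9 and Sox2, genes of immature cells of the eminence. Subgroup 6 (50 cells) led with Zic4, Zic1, Zic2 and Fgf15, known for septal and medial forebrain lineages, and had Bcl11b at only 330 and 281 CPM. Tac1 had no UMI in subgroup 5 of either library. Subgroup 7 (152 cells) led with Ttr and the excitatory-neuron genes Neurod6 and Neurod2. Its Ttr lay mostly in 1 knockout-labelled cell with 16390 UMIs. In wild type, 87 of the 101 Ttr UMIs in cells with Ebf1 lay outside subgroup 7. A high doublet score was given to 96 of the 114 knockout-labelled and 33 of the 38 wild-type cells of subgroup 7. Results between the libraries are therefore also given without subgroup 7, and with the levels of the subgroups averaged in 1 common mix for both libraries.

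**Figure D4:**
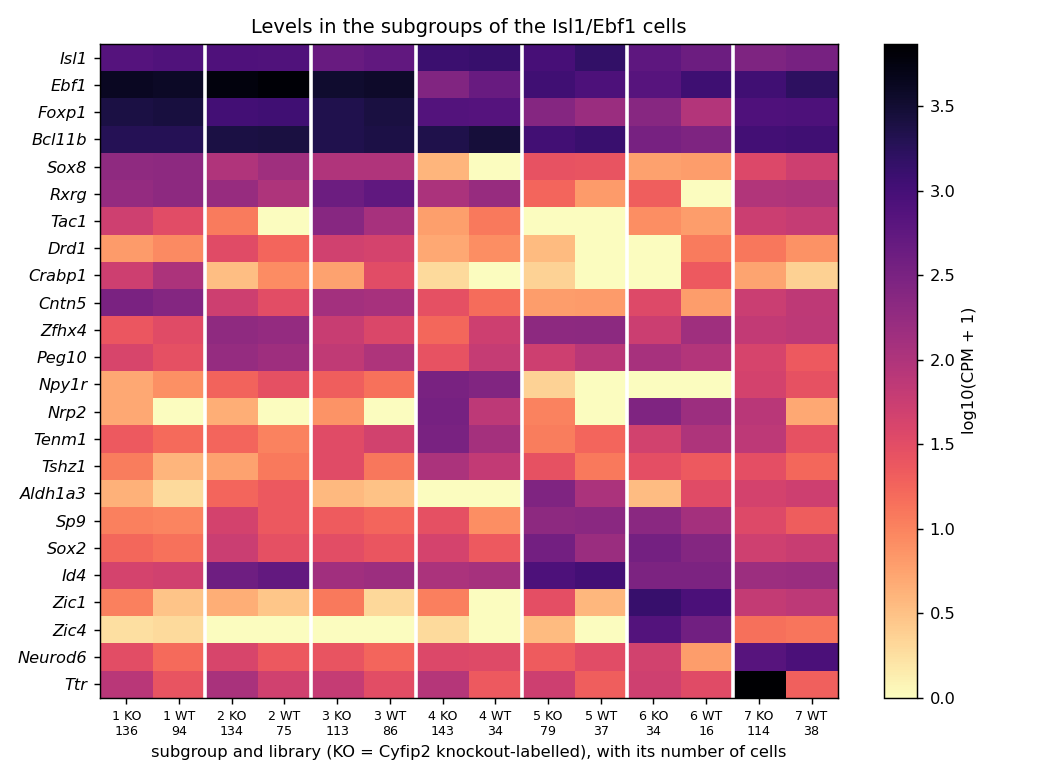
Level of 24 genes, as log10 of CPM + 1, in each of the 7 subgroups and each library (KO is the knockout-labelled library, left of WT in each pair, with the number of cells). Ebf1, Foxp1 and Sox8 are strong in subgroups 1 to 3, Npy1r and Nrp2 in subgroup 4, Aldh1a3 in subgroup 5, Zic1 and Zic4 in subgroup 6, and Neurod6 in subgroup 7. Ttr is high in subgroup 7 of KO only, where 1 cell held 16390 of its UMIs.

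Cells with Isl1 and no Ebf1 had less Sox8, Foxp1, Rxrg and Tac1 than cells with Ebf1, and more Zic4, Zic1 and Sox1. Of 5794 measured genes 110 were higher in the cells without Ebf1 (1.9%) and 114 lower (1.97%) in both. Isl1 itself was at 916 CPM in cells without and 531 CPM in cells with Ebf1 in the knockout-labelled library, and at 1117 and 645 CPM in wild type, a level the rule shapes, since these cells had to reach 4 UMIs on Isl1 alone. Lower in cells without Ebf1 were the direct-pathway marker Sox8 (6.81 and 98.2 CPM in the knockout-labelled library, 12.4 and 120 CPM in wild type), the pan-striatal Foxp1 (438 and 1543 CPM; 308 and 1865 CPM) and Rxrg (49.8 and 196 CPM; 23.2 and 257 CPM), which did not separate Isl1/Ebf1 from indirect-type cells. Tac1 was at 2.98 CPM without and 82.9 CPM with Ebf1 in the knockout-labelled library, and at 0 and 54.9 CPM in wild type. Rph3a, Cntn5, Klf5, Gpc6, Pcsk2, Brinp1, Ephb1, Pcp4 and Cntnap2 were lower too. Higher were Zic4, Zic1, Npy1r, Sox1, Wls, Sox2, Tshz2, Aldh1a3 and Sp9, among others. Sox1, a SoxB1 factor, was at 260 and 44.8 CPM in the knockout-labelled library and 288 and 53.1 CPM in wild type. The striatal factor Bcl11b was at 1255 and 1775 CPM, and 1417 and 1982 CPM, and Zfp503 at 323 and 257 CPM, and 438 and 274 CPM.

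Between the libraries few genes differed within all Isl1/Ebf1 cells, and the most extreme ratios rested on few cells. Of 6779 measured genes 82 were higher in the knockout-labelled library (1.21%) and 32 lower (0.472%) by the size rule. With a common mix of subgroups 30 were higher (0.447%) and 28 lower (0.418%), so that 51.7% in place of 71.9% of the passing genes were higher. Without subgroup 7 the counts were 73 (1.09%) and 45 (0.673%), and with both changes 41 (0.613%) and 36 (0.538%). Ttr, the thyroxine carrier of the choroid plexus, was at 2215 CPM in the knockout-labelled cells and 27.4 CPM in wild type, but 96.9% of its UMIs, 16390, came from 1 cell, and the next highest cell had 7. Without subgroup 7 its log2 ratio was 1.36 in place of 6.34. In barcodes under 100 UMIs, which hold free RNA, Ttr was at 2070 and 1016 CPM, and its part in the remaining difference was not tested.

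Genes of macrophages and microglia behaved likewise. C1qb, F13a1 and Mrc1 had 189, 180 and 208 UMIs in the knockout-labelled cells and none in wild type, which makes them at least 33.8-fold, 32.1-fold and 37.1-fold higher against a floor of 3 counts per library. At least 10 UMIs of C1qa, C1qb, C1qc and Pf4 together were in 4 knockout-labelled and 0 wild-type cells, which allows up to 0.789%. With 1 or more of these UMIs there were 47 knockout-labelled cells (6.24%) and 4 wild-type cells (1.05%), a ratio of 5.93 (2.17 to 22.7). A single cell held 81.5% of the Pf4 UMIs, and a single cell 87.8% of those of F13a1. The 7 microglial markers summed to 104 CPM and 6.11 CPM, and to 10.5 and 5.09 CPM without subgroup 7, where none of them was measured. Fcer1g (21.5 and 1.22 CPM), Sparc (23.2 and 1.96 CPM) and the lipoprotein Apoe (71.4 and 11 CPM) also lost the call there. Endothelial and mural markers summed to 29.9 and 3.91 CPM and meningeal markers to 27.4 and 3.67 CPM, with 0 and 3 of 9, and 0 and 1 of 6, genes without a UMI. Without subgroup 7 these sums were 10.7 and 3.60 CPM, and 6.11 and 3.60 CPM.

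Genes that led subgroups 4 to 6 were also among the higher ones. Nrp2 was at 85.7 CPM (654 UMIs) in the knockout-labelled cells and 12.5 CPM (51 UMIs) in wild type, a log2 ratio of 2.78 (2.37 to 3.22), and of 1.94 without subgroup 7 and with a common mix. Nts, the neurotensin precursor, was at 38.4 and 3.42 CPM (3.49), with 49.8% of its knockout-labelled UMIs in 1 cell, and at 2.08 with those settings. Pcdh11x, a protocadherin of the X chromosome, was at 32.4 and 8.80 CPM (1.88; 1.08 with those settings) and the teneurin Tenm1 at 75.7 and 34.7 CPM (1.12). The cell cycle gene Ccnd2 (178 and 82.9 CPM), the stress-responsive Gadd45g (44.3 and 14.4 CPM), the homeobox factor Dlx1 (116 and 60.4 CPM), Sox2 (88.4 and 49.1 CPM), Tshz1 (33.7 and 14.2 CPM), Zic1 (97.7 and 54.8 CPM) and Zic4 (43.9 and 20.0 CPM) were higher. The larger share of cells without Ebf1 moves with these genes, and its part in them was not tested. Of 5 measured eminence progenitor markers 2 passed upward, with a median log2 ratio of 0.43. Of 4 measured septal markers 2 passed upward and Trpc4 (14.8 and 22.7 CPM) downward. Over all measured genes 1.21% passed upward and 0.472% downward. These counts vary with the setting. Without subgroup 7, 4 of 6 eminence and 3 of 5 septal markers passed upward. With a common mix as well, 2 of 5 and 3 of 4 did.

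Fewer genes were lower. Crabp1, a cytoplasmic retinoic acid-binding protein, had the largest such ratio, at 10.9 CPM (83 UMIs in 27 cells) in the knockout-labelled cells and 35.2 CPM (144 UMIs in 30 cells) in wild type, a log2 ratio of -1.70 (-2.10 to -1.30). It was at -1.29 with both changes. Frmd6, a FERM-domain protein gene of the Hippo pathway, was at 33.1 and 64.8 CPM (-0.97; -0.69 with those settings). Ikzf1, a zinc finger factor of striatal and lymphoid cells, was at 44.4 and 75.8 CPM (-0.77), but at -0.33 with those settings. Prc1, Slc9a8, Fblim1, Xpot, Mrtfb, Lmo2, Rab30, Calb1 and Klf5 complete the 12 lowest, with log2 ratios from -0.94 to -0.66. The calcium-binding protein Calb1 (15.3 and 24.2 CPM) rested on 43 and 23 cells. Fabp7, a radial glia gene, was at 32.7 and 51.6 CPM (-0.66), and turned to 0.99 without subgroup 7, where it no longer reached the level needed to be measured.

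Measured direct-pathway markers other than Tac1 had ratios below 0, and those other than Tac1 and Isl1 were nearer to 0 without subgroup 7 and with a common mix. The 7 measured ones, Isl1 and Ebf1 of the rule included, had a median log2 ratio of -0.43, which was -0.12 with those settings, against -0.01 and -0.02 over all measured genes. None passed the size rule, beside 1.21% of all genes upward and 0.472% downward, so that this count says nothing particular to them. Ebf1 was at -0.44 (-0.47 to -0.40), and at -0.09 with those settings. Likewise Sox8 (70.1 and 103 CPM) was at -0.56 and -0.16, Rxrg (151 and 220 CPM) at -0.54 and -0.20, Plxnd1, a semaphorin receptor (16.5 and 22.2 CPM), at -0.43 and -0.04, and Foxp1 at -0.43 and -0.12. Tac1 went the other way, at 0.34 (0.09 to 0.59), and passed the rule at 0.93 with those settings. Its UMIs lay in 53 and 27 cells. Of 13 measured pan-striatal markers only Ikzf1 passed, and the others lay between -0.43 (Foxp1) and 0.04 (Arpp21). Of 7 measured matrix markers Mef2c (356 and 236 CPM) passed upward and Calb1 downward. Mef2c lost the call without subgroup 7 (0.34), and with a common mix as well (0.45), while Efna5 (21.6 and 15.9 CPM; 0.44) passed upward at 0.73 and 0.67. The 4 measured striosome markers had a median of -0.14 and none passed.

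**Figure D5:**
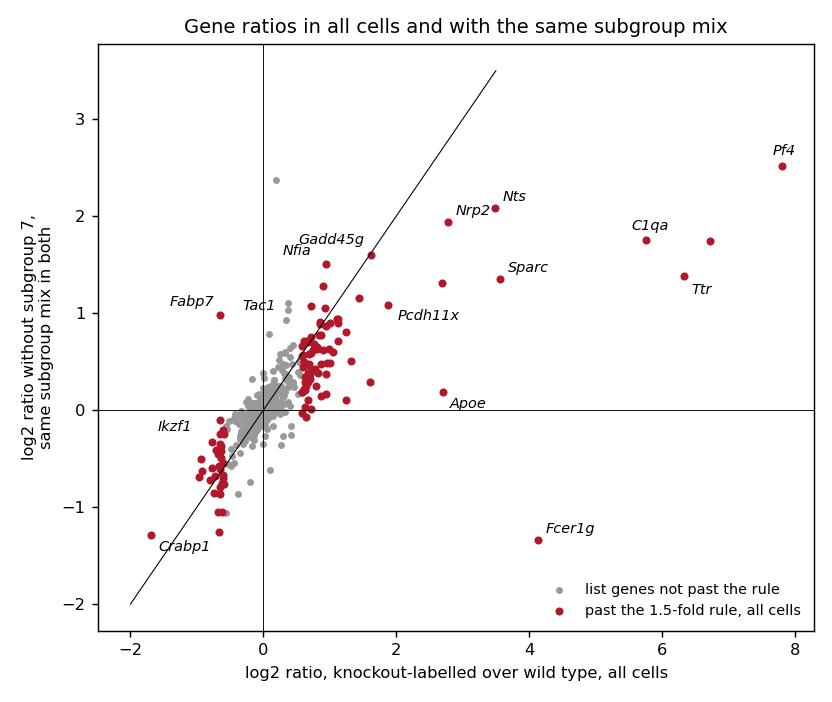
Each gene's log2 ratio (knockout-labelled to wild type) in all Isl1/Ebf1 cells (horizontal) and without subgroup 7 in a common mix of subgroups (vertical), for measured genes of the lists and named genes; red points pass the size rule in all cells and the diagonal marks equal values. Ttr, Pf4, C1qa and Fcer1g lie far below the diagonal, while Nrp2 (2.78 and 1.94), Nts and Crabp1 (-1.70 and -1.29) stay on their side of 0.

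Within the cells that carried Ebf1 and lay outside subgroup 7, 425 knockout-labelled and 280 wild-type cells, 51 of 6615 genes were higher (0.771%) and 57 lower (0.862%). Among the largest ratios upward were those of Ttr (77.1 and 30.9 CPM; 1.32), the nuclear factor Nfia (34.3 and 14.9 CPM; 1.20) and the thyroid hormone deiodinase Dio3 (32.6 and 14.6 CPM; 1.17). The zinc finger factor Zeb2 (80.1 and 40.1 CPM), the ephrin Efna5 (23.3 and 11.7 CPM), the vesicular monoamine transporter Slc18a2 (25.2 and 12.8 CPM) and Dlx1 (70.8 and 37.3 CPM) followed. Crabp1 was lower again, at 19.5 and 50.8 CPM (-1.38; -1.81 to -0.96), followed by the tRNA exporter Xpot (12.1 and 24.5 CPM; -1.02) and Cntnap3 (12.3 and 24.1 CPM; -0.97).

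Within the cells with Isl1 and no Ebf1 outside subgroup 7, 214 knockout-labelled and 62 wild-type cells, 124 of 3993 genes were higher (3.11%) and 76 lower (1.9%). Subgroup 4 held 125 of the knockout-labelled and 24 of the wild-type cells, subgroup 5 held 49 and 20, and subgroup 6 held 26 and 11. The largest ratios upward were those of Nts (54.6 and 11.5 CPM; 2.24), Nrp2 (231 and 55.7 CPM; 2.05), Pcdh11x (84.2 and 21.1 CPM; 1.99), the calmodulin-binding peptide gene Pcp4 (75.1 and 19.2 CPM; 1.97) and Ttr (71.1 and 21.1 CPM; 1.75). The wild-type levels of Nts and Pcp4 rest on 6 and 10 UMIs. The cation channel Trpc4 (30.7 and 133 CPM; -2.11), Calb1 (41.5 and 127 CPM; -1.61), the glutamate receptor Grm5 (41.0 and 99.9 CPM; -1.29) and Rgs2 (66.6 and 140 CPM; -1.08) had the lowest ratios. How these ratios relate to the mix of subgroups was not tested.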

How the data were processed

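The values analysed are counts of UMIs per gene and barcode in 2 libraries, as deposited by the authors. Cell Ranger 4 made them, per the file headers, on mm10, per the submitters' processing notes; the sources used here give neither its settings nor its annotation release. Barcodes with at least 1000 UMIs, 500 genes and at most 10% mitochondrial UMIs were called cells. Doublets were scored with Scrublet (scanpy 1.11.5) at 0.8% per 1000 cells, which marked 10.3% and 7.26% of called cells in the knockout-labelled and wild-type libraries; the rule keeps them. UMIs were summed per library over the cells compared and given as CPM with exact intervals (Python 3.11.15, scipy 1.17.1, numpy 2.4.6). The intervals were tried on simulated independent counts, which is what they assume. That trial does not cover UMIs clumped in single cells, as those of Ttr were. Genes of a set comparison had to pass the size rule in both libraries. Subgroups are Leiden clusters made without the genes of the rule. A common mix weights each subgroup by its mean share in the libraries; its intervals are those of the unweighted counts. The members, lists and rules were chosen with earlier results of these data known. Named are the 12 measured genes with the largest ratios each way, without sex-linked, haemoglobin, mitochondrial and unnamed genes, the genes of the rule, the marker lists and the passing members of other lists; genes named within cells with or without Ebf1 were chosen after their values were seen. Some genes that the rule names are not reported here. Gene positions are those of GENCODE M21, which held 32158 of 32285 IDs.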

Additional observations from a re-analysis of the deposited data

How the results depend on the processing

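No paired analysis was possible because each group has 1 library, so no replicate could be left out either. The alternative of cells with Y-linked UMIs and no Xist was not run, since no such cell was found. The share ratio of 1.40 became 1.13 when both Isl1 and Ebf1 were required, and 1.15 with at least 1 Ebf1 UMI. The 82 higher and 32 lower genes became 43 higher when the rule was applied to cells thinned to 4000 UMIs, 30 higher with a common mix of subgroups, and 41 higher when subgroup 7 was left out as well. A minimum of 50 CPM gave 29 and 7, no filter beyond 1 count gave 696 and 203, and a 2-fold rule gave 27 and 1. With a common mix and without subgroup 7, 23 of the higher and 17 of the lower genes were shared with those of all cells. Log2 ratios changed sign as follows. Hba-a1 was at 0.053 where both factors were required and 0.034 with an Ebf1 UMI, and Trpc4 at 0.36 and 0.54. Fabp7 was at 1.12 without high doublet scores, and, no longer measured, at 0.99 without subgroup 7 and 0.98 with a common mix as well. Fcer1g was at -1.11 and -1.34 under the last pair of settings, and Nrp1 at -0.033 under the last. Scn2a was at -0.076 in cells with at most 1 Neurod2 and Neurod6 UMI. The settings without subgroup 7 and with at least 1 Ebf1 UMI were chosen after seeing the data. The cause of these changes was not tested. Genes under about 100 UMIs over both libraries were not measured.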

Other observations

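Between the knockout-labelled and wild-type Isl1/Ebf1 cells 1.21% of all 6779 measured genes passed the 1.5-fold size rule upward and 0.472% downward. Groups without a passing member, a count near that share and no result about them, were 44 measured actin regulators (median log2 ratio -0.04), 22 genes of FMRP and translation (-0.04), 13 GABA genes (-0.04), 29 synaptic vesicle genes (-0.06), 36 subunits of oxidative phosphorylation (0.05) and 18 cholesterol genes (-0.05). Without subgroup 7 the GABA list had Slc12a2 and the vesicle list Syn1 as lower genes.

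Other lists held single genes past the rule. Of 47 measured axon guidance genes Nrp1, Nrp2 and Sema3a were higher in the knockout-labelled cells and none lower. Without subgroup 7 the passing genes were Nrp2, Sema3a and Efna5 upward and Chl1 downward (-0.60). With a common mix as well they were Nrp2 and Efna5, and Nrp1 was at -0.033. Of 25 migration genes Dab1, an adaptor of reelin signalling, was higher, at 78.7 and 39.4 CPM. Of 8 retinoic acid genes Aldh1a3 was higher, at 43.5 and 24.0 CPM, and Crabp1 lower. Haemoglobin and related erythroid markers summed to 60.4 CPM in the knockout-labelled and 99.5 CPM in the wild-type cells.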
